A study of Mus musculus with 6 samples.

Results

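Parp9, Parp10, Parp11, Parp12, Parp14 and Dtx3l are 5 ADP-ribosyltransferase genes and the gene of a ubiquitin ligase that partners with Parp9, and they are known together as interferon-induced genes. They were taken from the tables by gene symbol and are 6 of the 23699 rows that each expression table lists. RNA came from peritoneal macrophages of C57Bl/6 mice that carried the genotype miR-221/222 -/Y, which removes the X-linked genes of the microRNAs miR-221 and miR-222 (KO), or were wildtype (WT). Macrophages of both genotypes were studied without treatment (naive), after 4 h with lipopolysaccharide (LPS) at 1000 ng/ml, and after a tolerizing protocol of 15 h with LPS at 10 ng/ml, a wash, 2 h of rest and a further 4 h with LPS at 1000 ng/ml (labelled Tolerized+LPS, here tolerized). Poly-A mRNA was sequenced and each of the 6 groups had 1 library, although the design text speaks of triplicates. No cells were given interferon itself, so the data show the response of these genes to LPS. Age, the number of mice behind a library and the cell type in which the deletion acts are not given in the labels.

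ADP-ribosyltransferases of the PARP family move ADP-ribose from NAD onto proteins. Parp1 and its nearest relatives build chains of it, while Parp10, Parp11, Parp12 and Parp14 attach single units, and Parp9 acts in a complex with Dtx3l, a ubiquitin ligase of the Deltex family. In macrophages LPS, which Gram-negative bacteria carry on their surface, signals through Toll-like receptor 4 and leads to the making of interferon beta. Interferon beta then acts on the same cells and their neighbours through a transcription factor complex that includes Stat2 and Irf9 and binds a DNA element called the interferon-stimulated response element. Tolerance is the changed answer of cells that have met LPS before.

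Levels are given in FPKM, which divides the fragments of a gene by its transcript length and by the size of the library, with the interval deposited beside each value. These intervals spanned between 0.758% and 10.1% on either side of the value over all members and libraries, and they cover counting error only. Differences between conditions and genotypes are on the log2(FPKM + 1) scale and were tested with limma over all 6 libraries and 10138 genes, with p-values adjusted by the Benjamini-Hochberg method over all of them. A gene is said to rise or fall only where its adjusted p was below 0.05. In that fit each condition has 2 libraries and each genotype 3, a difference that holds in 1 genotype only counts as spread, and the p-values measure only the spread between these libraries, which may be technical. In bulk RNA, fewer cells of a type and less RNA per cell cannot be told apart.

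The targeted genes Mir221 (chromosome X, 18723420 to 18723514) and Mir222 (chromosome X, 18724019 to 18724097, both mm9) were listed at 0 FPKM in all 6 libraries, which checks nothing, since poly-A libraries do not hold mature microRNAs. All 8 macrophage markers examined were detected, at a summed 11639 to 48948 FPKM per library. Their sum was 18809 and 23534 FPKM in the KO and WT LPS libraries, against 39424 and 48948 FPKM in the KO and WT naive libraries. Most of each sum was Lyz2, at 16240 and 19661 FPKM with LPS in KO and WT, against 35949 and 45134 FPKM in naive KO and WT cells, and its difference was not called (adjusted p = 0.21). Of the 8, only Cd14, the LPS co-receptor, rose with LPS (1.89, adjusted p = 0.013). Those that fell were Csf1r (-2.22, adjusted p = 0.0016) and Itgam (-1.05, adjusted p = 0.034). After rescaling the libraries to a common median, Csf1r still fell (-1.37) and Itgam was not called (-0.20). The 5 B cell markers summed to 255.5 to 625 FPKM and were lowest in the LPS libraries of both genotypes. The 5 markers of large peritoneal macrophages summed to 48.4 to 377 FPKM, and this sum was lowest in the tolerized libraries. Of the 5, 3 fell in tolerized against LPS cells, while Icam2 rose (1.30, adjusted p = 0.0099). Icam2 had 32.9 and 22.1 FPKM in tolerized KO and WT cells, against 11.3 and 9.45 FPKM with LPS. After rescaling, its difference was not called (0.74). Neutrophil markers summed to 141 to 397 FPKM, with S100a9 and Ngp listed at 0 in every library. Mast cell markers summed to 56.4 to 116 FPKM, T and NK cell markers to 2.27 to 11.1 FPKM, and mesothelial and fibroblast markers to 1.08 to 5.14 FPKM. The part of these cells in the results below was not tested. The most abundant 50 rows took 35.2% to 47.0% of all FPKM, and the median of all tested genes lay at -0.76 for LPS against naive and at 0.51 for tolerized against LPS, so differences of the members are also given relative to these medians.

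All 6 genes rose with LPS. The Parp9 and Dtx3l genes lie head to head on chromosome 16, at 35938556 to 35972707 and 35926601 to 35939113 (mm9), and their loci share 558 bases. Reads in that overlap cannot be told apart, because the use of strand in the authors' counting is not given in the sources used here. Parp9 had 14.1, 142 and 56.1 FPKM in naive, LPS and tolerized KO cells, against 13.8, 109 and 41.8 FPKM in WT cells. Dtx3l had 14.9, 111 and 46.8 FPKM in the KO cells and 14.7, 82.2 and 31.0 FPKM in the WT cells. For both genes the LPS libraries of both genotypes stood above both tolerized libraries, and these above both naive libraries. With LPS against naive, Parp9 rose by 3.07 ± 0.22 on the log2 scale (SE, adjusted p = 0.0004), an FPKM ratio of 10.1 in KO and 7.89 in WT. Dtx3l rose by 2.61 ± 0.23 (adjusted p = 0.00052), with ratios of 7.43 in KO and 5.61 in WT. The ratio of Parp9 to Dtx3l was 0.947, 1.28 and 1.20 in naive, LPS and tolerized KO cells and 0.939, 1.32 and 1.35 in the WT cells. Parp9 was thus slightly below Dtx3l in naive cells, with overlapping intervals, and above it in every cell given LPS, with intervals that did not overlap.

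Parp14, a large enzyme with several macrodomains that bind ADP-ribose, lies on the same chromosome at 35832964 to 35871468 (mm9). It was the most abundant member in every library. Its level was 24.0, 451 and 119 FPKM in naive, LPS and tolerized KO cells, and 21.8, 282 and 91.9 FPKM in the WT cells. Parp14 rose by 3.90 ± 0.24 with LPS (SE, adjusted p = 0.00036), the largest fitted difference among the members, which is an FPKM ratio of 18.8 in KO and 12.9 in WT. Relative to Parp9, its level was 1.70-fold, 3.18-fold and 2.12-fold in naive, LPS and tolerized KO cells, and 1.59-fold, 2.60-fold and 2.20-fold in the WT cells. The order of FPKM levels was Parp14, Parp12, Parp9, Dtx3l, Parp10 and Parp11 in all 4 libraries of cells given LPS, with no overlap between the intervals of neighbours. In KO naive cells the intervals of Parp14 and Parp12, of Dtx3l and Parp9 and of Parp9 and Parp10 overlapped.

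Parp12 has zinc fingers that bind RNA and is known to restrict alphaviruses. Its gene lies on chromosome 6 at 39036411 to 39068348 (mm9). It had 23.5, 196 and 103 FPKM in naive, LPS and tolerized KO cells, and 18.6, 179 and 71.7 FPKM in the WT cells. Parp12 rose by 3.10 ± 0.22 with LPS (SE, adjusted p = 0.00041), an FPKM ratio of 8.33 in KO and 9.63 in WT. With Parp10 it was 1 of 2 members with a higher ratio in WT than in KO.

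Parp10, a mono-ADP-ribosyltransferase with an RNA recognition motif and ubiquitin-binding motifs, lies on chromosome 15 at 76063425 to 76073870 (mm9). It had 12.8, 52.6 and 40.0 FPKM in naive, LPS and tolerized KO cells, and 9.04, 38.4 and 27.6 FPKM in the WT cells. The KO tolerized library was level with the WT LPS library, with overlapping intervals. Parp10 rose by 1.96 ± 0.19 with LPS (SE, adjusted p = 0.00064), an FPKM ratio of 4.11 in KO and 4.24 in WT.

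Parp11, whose human protein modifies a subunit of the ubiquitin ligase that lowers the interferon receptor chain IFNAR1, lies on chromosome 6 at 127403741 to 127444257 (mm9). It was the least abundant member, with 6.40, 27.7 and 14.5 FPKM in naive, LPS and tolerized KO cells, and 7.26, 11.7 and 8.96 FPKM in the WT cells. Both of the KO libraries given LPS stood above all 3 WT libraries, while the KO naive value was the lowest of all, with an interval that overlapped that of WT naive cells. Parp11 rose by 1.29 ± 0.33 with LPS (SE, adjusted p = 0.015). Its single-library difference was 1.96 in KO and 0.62 in WT, FPKM ratios of 4.33 and 1.61. The call rested on the KO libraries: the difference was 0.75 without the KO naive library (adjusted p = 0.078) and 0.82 without the KO LPS library (adjusted p = 0.1), and with no filter on low FPKM the adjusted p was 0.054. After rescaling the libraries to a common median it was 2.07 (adjusted p = 0.0056).

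**Figure D1:**
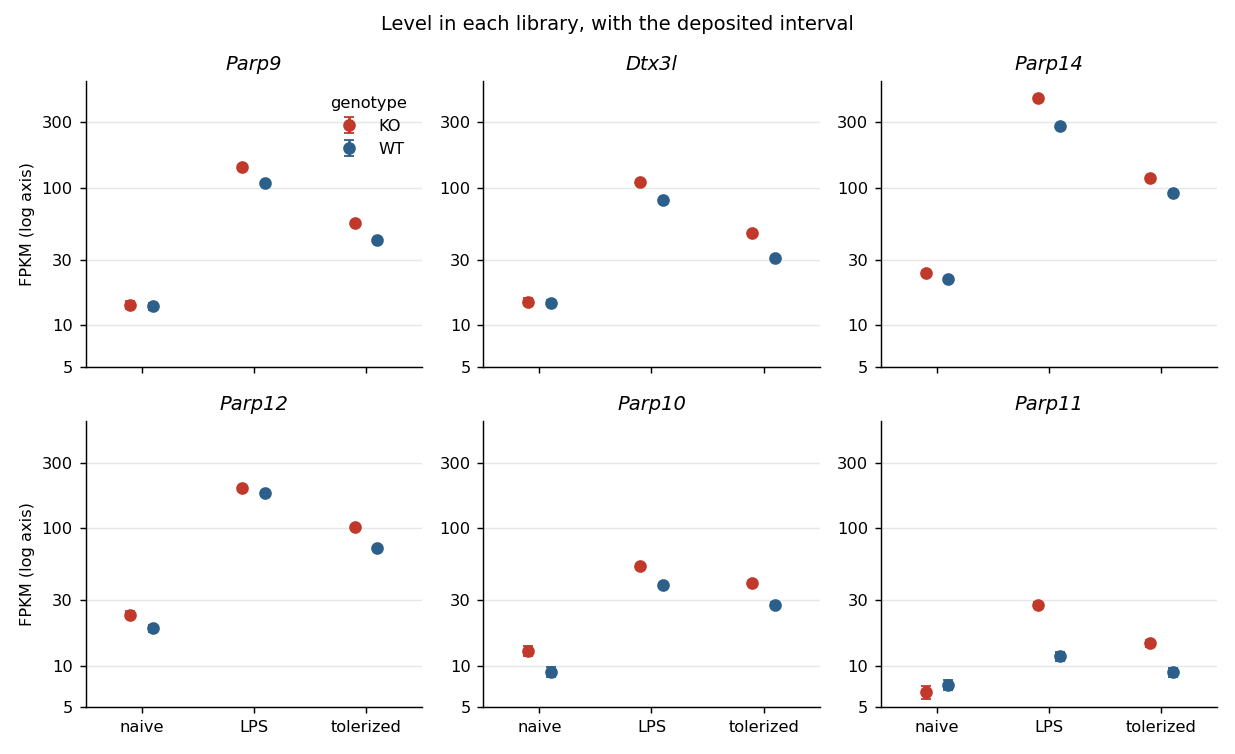
FPKM of each member (log axis) in naive, LPS and tolerized cells, with KO in red and WT in blue. Each point is 1 library and each bar its deposited interval, which is often smaller than the point. Parp14 reached 451 FPKM in KO and 282 FPKM in WT LPS cells, while Parp11 reached 27.7 and 11.7 FPKM.

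The 6 calls among 6 members with LPS compare with 8.74% of all tested genes called higher, and 0 members with 54.4% called lower. Both LPS libraries exceeded both naive libraries for 6 of 6 members and for 12.8% of all tested genes. The members' median difference was 2.84, or 3.59 above that of all genes, and after rescaling it was 3.66. Rescaling changed the split of all called genes from 886 higher and 5511 lower to 2297 higher and 2300 lower.

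In tolerized cells the members lay between their naive and LPS levels. Relative to LPS alone, Parp14 fell by 1.76 ± 0.24 (SE, adjusted p = 0.0079), an FPKM ratio of 0.264 in KO and 0.326 in WT. Parp9 fell by 1.34 ± 0.22 (adjusted p = 0.0091) and Dtx3l by 1.30 ± 0.23 (adjusted p = 0.01). Parp12 fell by 1.12 ± 0.22 (adjusted p = 0.013). Parp11 and Parp10 did not pass the threshold, with differences of -0.62 ± 0.33 (adjusted p = 0.17) and -0.42 ± 0.19 (adjusted p = 0.12). After rescaling, Parp10 passed at -1.01 (adjusted p = 0.022) and Parp11 had -1.19 (adjusted p = 0.062).

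Thus 4 of 6 members fell, against 4.32% of all tested genes, and 0 rose, against 36.8%. The same 4 had both tolerized libraries below both LPS libraries, as did 10.4% of all tested genes. The members' median was -1.21, or 1.72 below that of all genes. The split of all called genes was 3733 higher and 438 lower as deposited, and 835 higher and 942 lower after rescaling. These calls depended on single libraries. Without the KO LPS library 0 of 6 members passed, with adjusted p of 0.051 for Parp14, 0.055 for Parp9 and Parp12 and 0.059 for Dtx3l, and with 91 of all genes called lower. Without the WT tolerized library 2 members passed, since Dtx3l had an adjusted p of 0.062 and Parp12 of 0.11, and without the WT LPS library 3 passed, with Parp12 at 0.07. The fitted difference of these 4 genes stayed negative in each of those fits, between -0.97 and -1.55 where a call was lost.

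Tolerized cells still held more of these transcripts than naive cells. Parp14 rose by 2.14 ± 0.24 over naive (SE, adjusted p = 0.0038), Parp12 by 1.99 ± 0.22 (adjusted p = 0.0038), Parp9 by 1.73 ± 0.22 (adjusted p = 0.0046), Parp10 by 1.54 ± 0.19 (adjusted p = 0.0046) and Dtx3l by 1.31 ± 0.23 (adjusted p = 0.011). Parp11 differed by 0.67 ± 0.33 (adjusted p = 0.18). These 5 of 6 calls compare with 7.41% of all tested genes called higher, and 0 members with 19.7% called lower. Both tolerized libraries exceeded both naive libraries for 6 of 6 members and for 22.6% of all tested genes. The members' median of 1.63 lay 1.85 above that of all genes. Without the KO tolerized library Dtx3l had 1.13 and an adjusted p of 0.066.

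**Figure D2:**
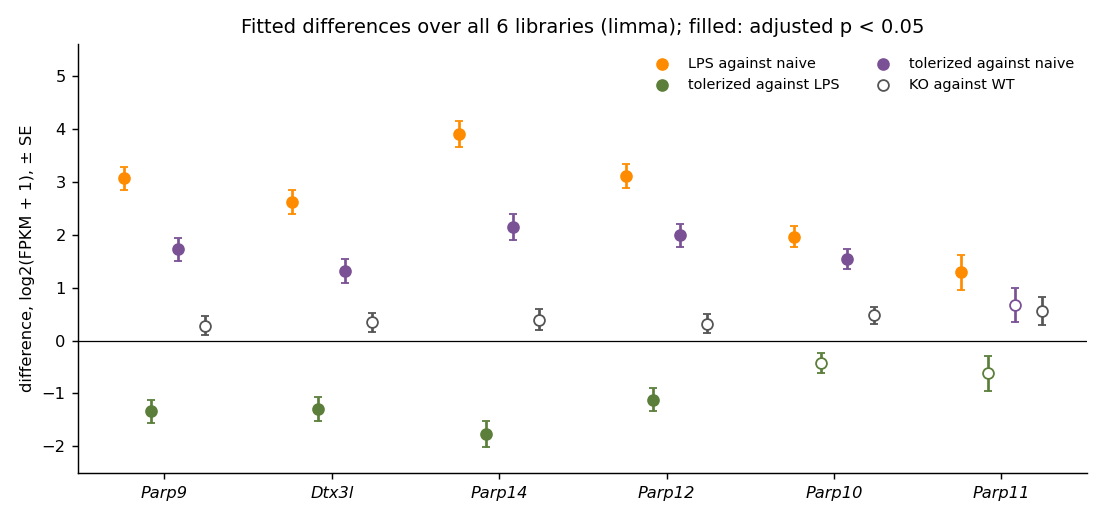
Fitted differences of the 6 members on the log2(FPKM + 1) scale (y axis), with bars of 1 SE, for 3 contrasts of conditions and for KO against WT. Filled points have an adjusted p below 0.05. All 6 members were called for LPS against naive, Parp10 and Parp11 were not called for tolerized against LPS, and no member was called for KO against WT.

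The share of the LPS increase that was still present in tolerized cells separated Parp10 from the other members. That share is the tolerized minus the naive FPKM as a percentage of the LPS minus the naive FPKM of the same genotype, and it is a description with 1 library at each point. For Parp10 it was 68.4% in KO and 63.2% in WT cells. For Parp12 it was 46.0% in KO and 33.0% in WT, and for Parp11 38.0% in KO and 38.5% in WT, where the interval of the WT value ran from 20.0% to 56.9%. Parp9 kept 32.9% in KO and 29.6% in WT, Dtx3l 33.3% in KO and 24.2% in WT, and Parp14, the gene with the largest increase, 22.2% in KO and 26.9% in WT. The members' medians were 35.7% in KO and 31.3% in WT. Those of 25 antiviral interferon-stimulated genes, such as Ifit1, Mx1 and Isg15, were 32.8% in KO and 31.1% in WT, with single genes from 4.23% to 294.2% in KO and from 2.33% to 165.9% in WT. After rescaling, the members' shares lay between 14.3% and 41.0%, with medians of 22.5% in KO and 21.5% in WT, and Parp10 was again the highest at 40.6% in KO and 41.0% in WT.

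**Figure D3:**
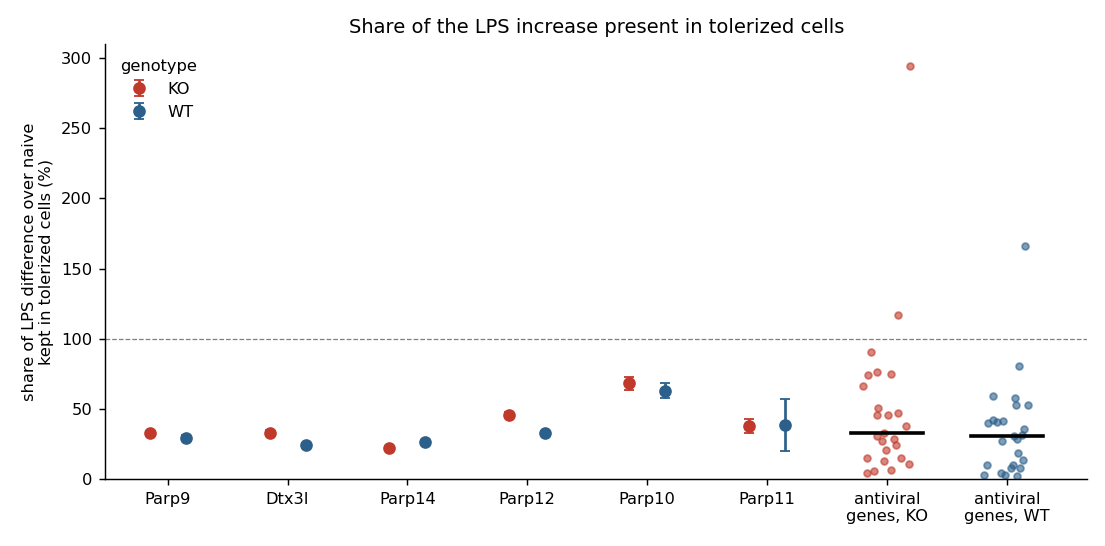
Percentage of the LPS increase over naive (y axis) that was present in tolerized cells, for each member with the interval given by the deposited bounds, and for 25 antiviral genes (small points, line at the median). KO is red and WT blue. Parp10 kept 68.4% in KO and 63.2% in WT, and Parp14 22.2% and 26.9%.

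KO against WT, the comparison that the title of the series is about, gave no call among the members. Parp11 differed by 0.55 ± 0.27 (SE, adjusted p = 0.77), Parp10 by 0.47 ± 0.16 (adjusted p = 0.58), Parp14 by 0.39 ± 0.20 (adjusted p = 0.79), Dtx3l by 0.34 ± 0.19 (adjusted p = 0.8), Parp12 by 0.32 ± 0.18 (adjusted p = 0.8) and Parp9 by 0.28 ± 0.18 (adjusted p = 0.81). With limma 0 of 6 members and 0.0% of all tested genes were called. At an unadjusted p below 0.05 there was 1 member, Parp10, and 438 genes higher and 268 lower among all tested. The fit averages over the 3 conditions, and a difference between genotypes that depends on the condition cannot be tested with 1 library per group.

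Within conditions the values of the single libraries were as follows. In LPS cells the KO library stood above the WT library for 6 of 6 members, with intervals apart for 6 of 6, against 22.6% of all tested genes with intervals apart and KO higher. The differences there were 1.18 for Parp11, an FPKM ratio of 2.37, then 0.68 for Parp14 (a ratio of 1.60), 0.45 for Parp10, 0.43 for Dtx3l, 0.38 for Parp9 and 0.12 for Parp12. In tolerized cells KO was also higher for 6 of 6, intervals apart for 6 of 6 against 21.0% of all tested genes, with differences between 0.37 for Parp14 and 0.64 for Parp11. In naive cells intervals were apart with KO higher for 3 of 6 members, against 25.1% of all tested genes. These were Parp10 (0.46), Parp12 (0.32) and Parp14 (0.13), while Parp9 (0.03), Dtx3l (0.02) and Parp11 (-0.16) had overlapping intervals. The members' median was 0.08 in naive, 0.44 in LPS and 0.52 in tolerized cells, beside all-gene medians of -0.03, -0.11 and -0.02.

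The antiviral genes had a larger median difference than the members in each condition, most of all in naive cells, which is a description. Of 25, 24 were higher in KO in naive, 23 in LPS and 25 in tolerized cells, with medians of 1.28, 0.68 and 0.95, while 46.7%, 39.9% and 47.1% of all tested genes were higher in KO. Ifnb1, which encodes interferon beta, was at 0.103, 134 and 1.65 FPKM in naive, LPS and tolerized KO cells, and at 13.5 FPKM in LPS-treated and 0.438 FPKM in tolerized WT cells, with naive WT cells listed at 0. Stat2 had 12.6, 106 and 44.7 FPKM in the KO cells and 11.6, 86.6 and 31.4 FPKM in the WT cells, and Irf9 had 22.9, 62.2 and 47.8 FPKM in the KO cells and 23.9, 73.0 and 44.5 FPKM in the WT cells. In naive cells, then, most antiviral genes stood higher in the KO library while Parp9, Dtx3l, Stat2 and Irf9 were close in both. Of the cell type markers, the large peritoneal macrophage list had a naive sum of 186.5 FPKM in KO and 377 FPKM in WT. Its markers differed in both directions, with 1.87 (KO) and 158.5 (WT) FPKM of Vsig4, 48.9 (KO) and 146.9 (WT) FPKM of Alox15, and 108 (KO) and 35.6 (WT) FPKM of Timd4. The B cell list had a naive sum of 475 FPKM in KO and 625 FPKM in WT. Their part in these differences was not tested.

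**Figure D4:**
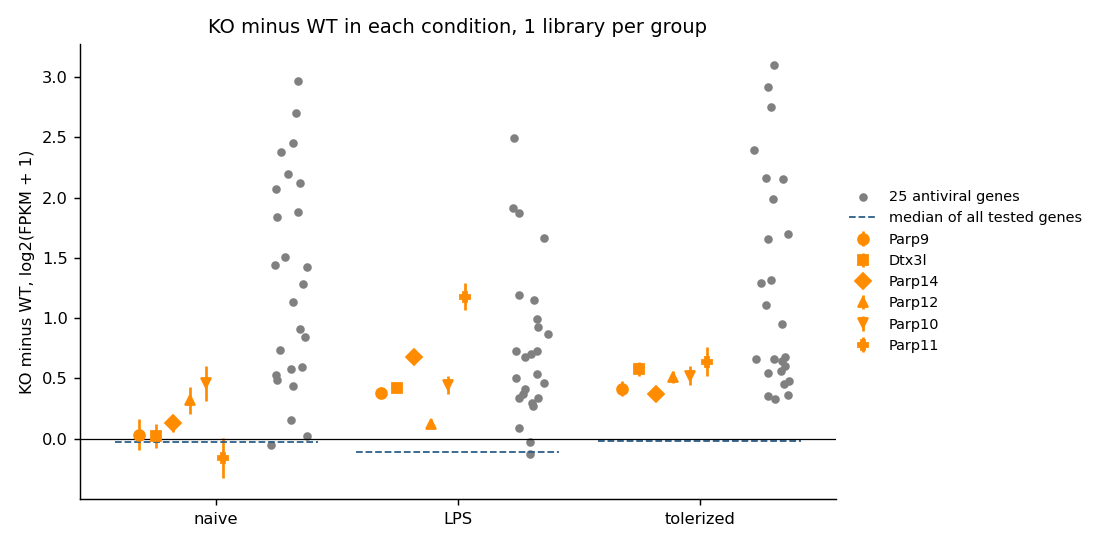
KO minus WT difference of single libraries on the log2(FPKM + 1) scale (y axis) in each condition. Orange symbols are the 6 members with bars from the deposited intervals, grey points the 25 antiviral genes and dashed lines the median of all tested genes. Members lay between -0.16 and 0.46 in naive cells, and Parp11 stood at 1.18 in LPS cells.

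The microRNAs deleted in the KO cells share their seed, the bases that pair with a target, so both are shown with the seed (bases 2 to 8) in capitals. The sequences are RefSeq's on GRCm38.p6, from chrX:19146307-19146329 and chrX:19146901-19146923, both on the minus strand.
mmu-miR-221-3p: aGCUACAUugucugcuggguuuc
mmu-miR-222-3p: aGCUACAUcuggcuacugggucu
Of the 6 members, 1 held a match to that seed in its longest 3′ UTR of the GENCODE annotation on GRCm38, and 9.45% of 21028 genes did. It was Dtx3l, on the minus strand of chromosome 16, where the match began 2383 bases after the stop codon in a UTR of 2788 bases. The site is shown with its flanks, the seed match in capitals.
Dtx3l site: gcctctccctATGTAGCcaaggctatt
A match is a description of the sequence. Dtx3l, the member with the match, had KO minus WT differences of 0.02, 0.43 and 0.58 in naive, LPS and tolerized cells. Members without a match ran from -0.16 (Parp11) to 0.46 (Parp10) in naive cells and from 0.12 (Parp12) to 1.18 (Parp11) in LPS cells. In tolerized cells they ran from 0.37 (Parp14) to 0.64 (Parp11). The part of the match in these differences was not tested.

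The members differed in how alike their profiles were over the 6 libraries. Pearson's r of log2(FPKM + 1) was 0.999 for Parp9 and Parp14 and 0.995 for Parp9 and Dtx3l, and lowest for Parp12 and Parp11 (0.83). These are descriptions over 6 libraries that every gene shares. Among 7310 genes that reached 10 FPKM somewhere, those most like the mean profile of the members were Usp18, which removes Isg15 from proteins and damps interferon signalling (r = 0.998), Nlrc5, an activator of MHC class I genes (0.997), Acvr1, an activin receptor (0.997), and Clic4 (0.997). Eif2ak2, the RNA-activated kinase PKR (0.996), Stat2 (0.996) and the GTPase genes Gbp3 (0.996) and Igtp (0.995) followed. A high r says nothing of size: Acvr1 had 10.0, 12.9 and 11.6 FPKM in naive, LPS and tolerized KO cells, while Usp18 had 12.2, 561 and 151 FPKM. For single members, the highest r with Parp10 was that of the peptide transporter gene Tap1 (0.998), with Parp14 that of Eif2ak2 (0.999) and with Dtx3l that of Azi2, an adaptor of the kinase Tbk1 (0.998). The gene most like Parp11 was Tlr3, a receptor for double-stranded RNA (0.993), which had 3.56, 46.3 and 12.0 FPKM in naive, LPS and tolerized KO cells and 3.95, 11.0 and 5.66 FPKM in the WT cells.

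The genes around the members were examined as well. Of 20 other genes within 100 kb of a member, 14 reached 2 FPKM in some library, and of these 1 rose with LPS and 5 fell, beside 8.74% of all tested genes called higher and 54.4% lower. After rescaling 2 rose and 2 fell, beside 2297 genes higher and 2300 lower of all 9959 then tested. The gene that rose was 4930599N23Rik, which begins 124 bases from Parp12 (0.90 ± 0.20, SE, adjusted p = 0.0089). Its level was low, at 0.62 and 0.58 FPKM in naive and 2.17 and 1.79 FPKM in LPS-treated KO and WT cells. It passed the filter of 2 FPKM only through the KO LPS and KO tolerized (2.57 FPKM) libraries. Of those that fell, Wdr5b on chromosome 16 fell by 1.98 and Tbxas1, the thromboxane synthase gene 1833 bases from Parp12, by 1.71. Kpna1, an importin gene 10742 bases from Parp9, differed by -0.13 ± 0.19 (adjusted p = 0.57) and was called higher after rescaling, and Hspbap1, 4416 bases from Parp14, fell by 0.68 (adjusted p = 0.017) and was not called after rescaling. Relative to LPS alone, 4 of the 14 rose in tolerized cells and 0 fell, beside 36.8% of all tested genes called higher and 4.32% lower. After rescaling 2 rose and 0 fell in that comparison, beside 835 genes higher and 942 lower of all 9959.

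**Figure D5:**
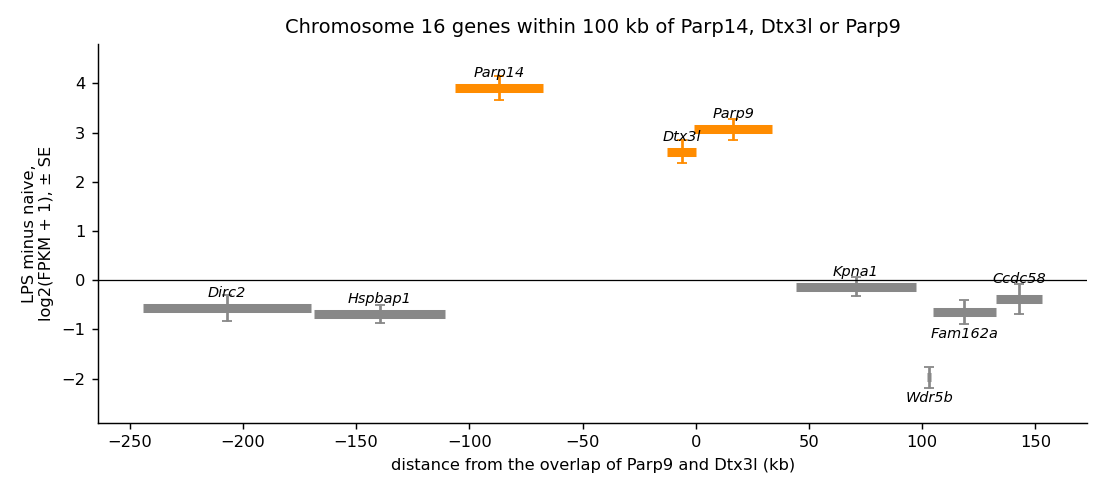
Fitted LPS minus naive difference on the log2(FPKM + 1) scale (y axis, bars of 1 SE) of the tested genes around Parp14, Dtx3l and Parp9, drawn at their distance in kb from the overlap of Parp9 and Dtx3l (x axis, mm9; the width of each box is the locus). The 3 members (orange) stood at 3.90, 2.61 and 3.07, and the neighbours (grey) at or below -0.13 as deposited.

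RefSeq's promoter table held windows of 300 bases, from 250 before to 50 after a start, for 3 of the 6 members: Dtx3l, Parp12 and Parp11, the last with 2 starts. They were searched on both strands for the core of the interferon-stimulated response element (GAAANNGAAA), the gamma-activated site (TTCNNNGAA) and a kappaB site (GGGANNTTCC), which occur in 3.44%, 8.3% and 1.47% of 32851 such windows. The upstream Parp11 window held the first of these motifs, from base -44 to -35 on the minus strand, and the second, from base -37 to -29, and the matches overlap. The other windows, with that of the downstream Parp11 start, held none of the 3, which says only that these letters are not in them. Whether the upstream start lies in the Parp11 locus behind the FPKM values was not tested, as no coordinates were moved between builds. Of the 25 antiviral genes, 10 of the 19 with a window held the response element core. The 250 bases before the upstream Parp11 start (GRCm38.p6, plus strand, chr6:127446590-127446839) are shown as the only member window with a match, both matches in capitals. Whether the matches bear on the levels of Parp11 was not tested.
Parp11 upstream start: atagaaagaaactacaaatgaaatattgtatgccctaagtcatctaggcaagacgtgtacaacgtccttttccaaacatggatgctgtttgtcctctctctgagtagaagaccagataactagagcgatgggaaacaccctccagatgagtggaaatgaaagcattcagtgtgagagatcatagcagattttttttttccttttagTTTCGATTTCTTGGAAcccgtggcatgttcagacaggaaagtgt

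The counts for other genes of ADP-ribose and NAD biochemistry are to be read beside all tested genes, of which 8.74% were called higher and 54.4% lower with LPS, and 36.8% higher and 4.32% lower in tolerized against LPS cells. After rescaling, with 9959 genes tested, 2297 were called higher and 2300 lower with LPS. In tolerized against LPS cells 835 were then called higher and 942 lower. Shares near those of all tested genes are no result about a list. Of 11 other PARP family genes 2 rose and 5 fell with LPS, or 4 and 1 after rescaling. Those that rose were Tiparp, a mono-ADP-ribosyltransferase induced by the aryl hydrocarbon receptor (1.50 ± 0.20, SE, adjusted p = 0.0013), and Zc3hav1, the zinc finger antiviral protein (1.44 ± 0.22, adjusted p = 0.0022). Parp1, the nuclear enzyme that responds to DNA breaks, fell by 2.44 ± 0.19 (adjusted p = 0.00044) and by 1.65 after rescaling. Its level was 34.1, 5.74 and 17.5 FPKM in naive, LPS and tolerized KO cells and 37.4, 5.82 and 18.0 FPKM in the WT cells. Tolerized against LPS, 4 of the 11 rose and 0 fell, or 1 and 2 after rescaling, with Parp1 rising by 1.47 as deposited and by 0.93 after rescaling and Tiparp and Zc3hav1 falling only after rescaling, by 1.16 and 1.04. Against naive cells, Zc3hav1 (1.00) and Tiparp (0.94) rose in tolerized cells and Parp1 fell by 0.97.

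Of the 4 other Deltex ligase genes, 0 rose and 2 fell with LPS, or 2 and 2 after rescaling. Dtx3 fell by 2.28 and Dtx4 by 1.58, while Dtx2 differed by 0.70 (adjusted p = 0.053) and rose by 1.49 after rescaling. In tolerized cells Dtx2 rose by 2.08 over naive (adjusted p = 0.0045), with 12.2, 15.0 and 50.9 FPKM in naive, LPS and tolerized KO cells and 7.31, 17.0 and 36.8 FPKM in the WT cells. Of 6 tested genes that remove or read ADP-ribose, 0 rose and 4 fell with LPS, or 1 and 0 after rescaling. Macrod1, a hydrolase of single ADP-ribose units, fell by 1.11 with LPS, and by 2.14 in tolerized against naive cells (adjusted p = 0.0065). Of 8 tested genes of NAD metabolism 2 rose and 4 fell with LPS, or 3 and 2 of 7 after rescaling. Cd38, an NAD-degrading enzyme, rose by 2.03 (adjusted p = 0.013), and Nampt, the rate-limiting enzyme of NAD salvage, by 1.48 (adjusted p = 0.0028). Nampt fell by 1.29 in tolerized against LPS cells (adjusted p = 0.012), with 126.0, 319 and 128 FPKM in naive, LPS and tolerized KO cells and 86.3, 269 and 111 FPKM in the WT cells.

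Of the 25 antiviral genes, 25 rose and 0 fell with LPS, beside 8.74% of all tested genes called higher and 54.4% lower. In tolerized against LPS cells 16 fell and 0 rose, beside 4.32% lower and 36.8% higher. Against naive cells 24 rose in tolerized cells, beside 7.41% of all tested genes. Of 13 genes of type I interferon signalling 8 rose and 2 fell with LPS, or 9 and 0 after rescaling. Stat2 rose by 2.89 ± 0.21 and Irf9 by 1.49 ± 0.21 (SE, adjusted p = 0.00042 and 0.0016). In tolerized against LPS cells 2 of the 13 rose and 4 fell, or 0 and 6 after rescaling, with Ifnb1 falling by 4.50, Irf1 by 2.53 and Usp18 by 2.14. Stat2 fell by 1.33 in that comparison, close to Parp9 and Dtx3l, while the difference of Irf9 (-0.54, adjusted p = 0.082) passed only after rescaling, at -1.13. For KO against WT limma called 0 of the 67 tested genes of these lists. At an unadjusted p below 0.05 there were 29 higher in KO and 1 lower, of which 21 were antiviral genes that were higher. Among all 10138 tested genes there were 438 higher and 268 lower at that level. Among the interferon signalling genes at that level were Irf7 (1.88), Ifnb1 (1.41) and Usp18 (0.83).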

How the data were processed

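Poly-A mRNA of mouse peritoneal macrophages was sequenced from TruSeq libraries, per the labels' protocols. Each deposited table holds 1 library and lists FPKM with a lower and an upper bound by gene, per the file headers. The submitters' processing notes name bcl2fastq 1.8.4, TopHat, Cufflinks and build mm9. The sources used here do not give other versions, the annotation, the strand setting or whether triplicates were pooled.

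Samples were grouped by title into 6 groups of 1 library. Of 23699 rows per table, 349 that were not marked OK in a library, 712 of repeated symbols and 798 of small RNA genes were left out. These classes overlap and came to 1533 rows in all, which left 22166, all 6 members among them. The depth of the libraries is unknown. If the intervals are 2 standard errors of a count, they imply 394 to 69593 fragments per member and library.

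Differences of log2(FPKM + 1) were fitted in R 4.3.3 with limma 3.58.1, using lmFit and a two-sided eBayes test that models the trend of the variance. The model had genotype and condition as terms and ran over the 10138 genes that reached 2 FPKM in 2 or more libraries, with Benjamini-Hochberg adjustment at 0.05. All 6 members passed that filter. Residual degrees of freedom were 2 and prior ones 4.2. The fit was tested on simulated data. Fold changes on this scale understate those of low genes. Rescaling divided each library by its median of ratios over tested genes above 0, with factors of 1.29, 0.688 and 1.08 for KO naive, LPS and tolerized and 1.31, 0.750 and 1.10 for WT. Other alternatives were a pseudocount of 0.1, no filter, no trend, no genotype term and leaving out each library.

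Named genes were all members, the 3 with the largest effect of each list and comparison (a selection of these is printed), genes within 100 kb, the 8 genes most like the members' mean profile and the 3 most like each member, and Ifnb1, Stat2 and Irf9. Not all genes under this rule are reported. Nampt and other list genes outside that rule in a comparison were named after their values were seen. The members and lists were chosen with earlier results of these data known, so no list is independent evidence of its direction. Seed and motif searches used GRCm38, a later build than mm9, by gene symbol, and no coordinates were moved between builds.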

Additional observations from a re-analysis of the deposited data

Results flagged for a closer look

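The KO minus WT difference of Parp11 had opposite signs between conditions. On the log2(FPKM + 1) scale it was -0.16 in naive cells, 1.18 in LPS cells and 0.64 in tolerized cells, each from 1 KO and 1 WT library. The naive difference lay within overlapping intervals. Whether the difference between genotypes depends on the condition was not tested, because a fit with that term has no residual degrees of freedom.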

How the results depend on the processing

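Of the 6 members' fits, no difference changed sign under any alternative run. The number of members called higher stayed at 6 for LPS against naive, except 5 with no filter on low FPKM, without KO naive and without KO LPS, in each of which Parp11 was lost. Leaving out a library in turn gave 0 to 4 members called lower for tolerized against LPS. It gave 91 to 558 genes lower in all for tolerized against LPS, 442 to 708 higher for tolerized against naive, and 0 to 151 higher and 0 to 82 lower for KO against WT. The last counts were 148 and 81 without WT tolerized, 151 and 82 without KO tolerized, and 1 and 0 without WT naive, and 0 of the 6 members was among them. These fits leave a condition with 1 library, which is assumed to vary like the others. With no filter, 262 genes were lower for tolerized against LPS and 495 higher for tolerized against naive, against 438 and 751 as reported, over 16689 genes tested. After rescaling, 2297 were higher for LPS against naive and 942 lower for tolerized against LPS, the median share of the LPS increase kept was 22.53% in KO and 21.54% in WT, and the median KO minus WT difference in LPS cells was 0.56. The cause was not tested. No paired analysis was possible because each group has 1 library and the labels carry no replicate numbers. Depth limits Parp11 most, at 6.40 FPKM in KO naive cells.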
